A study of Mus musculus with 24 samples.

Results

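Livers of 10-week-old mice that lose the clock gene Arntl (also called Mop3 or Bmal1) in hepatocytes were compared with livers of floxed mice of the same age. The 12 arrays of that age, of 24 in the series, were chosen by their titles. They hold 6 arrays of Mop3fxfx mice, which carry the floxed gene and no Cre recombinase (floxed livers), and 6 of Mop3fxfxCreAlb mice, which carry the same floxed gene and Cre under the albumin promoter (Cre livers). Each genotype had 1 array at each of ZT0, ZT4, ZT8, ZT12, ZT16 and ZT20, where ZT0 is the time the lights turn on, and the arrays were compared in pairs of 1 time. All mice were C57Bl/6J, lived under 12 h of light and 12 h of dark, and ate and drank freely. RNA of at least 3 mice was pooled for an array, so no single mouse was measured. Each p-value of the 10-week genotype difference describes the spread between 6 pairs of pools. Those of the rhythm describe the scatter about a 24-h cosine, and those of the ages come from a fit of all 24 arrays. The second channel of every array held a reference pool of 10-week livers of both genotypes. Mice with Cre but no floxed gene were not among the groups, which means that what Cre does and what the loss of Arntl does cannot be told apart. Albumin-driven Cre acts in hepatocytes, and the other cells of the liver keep the gene.

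ARNTL pairs with CLOCK or NPAS2 and binds E-box sequences in promoters. There it drives its own repressors, the period and cryptochrome genes and the REV-ERB receptors Nr1d1 and Nr1d2. The REV-ERB receptors in turn repress genes with ROR elements, Arntl among them. In liver this loop sets daily rhythms of lipid, sterol, glucose and drug metabolism, in part through the PAR bZIP factors Dbp, Tef and Hlf.

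An array measured 41174 probes beside its control spots. A gene was tested when its probe was well above background in the sample channel on at least 4 of the 12 arrays, and the brightest probe stood for each of the 18281 genes that passed. Values are log2 ratios of sample over reference, normalised within each array, and a genotype difference is the Cre minus the floxed ratio averaged over the 6 pairs, with the standard error of the limma fit. The share of probes well above background in Cy5 ran from 59.5 to 67.3% over the 12 arrays. Both arrays of a pair lay on 1 slide and in 1 scan for 5 of the 6 pairs. The exception was ZT16, whose Cre array lay alone on another slide, was scanned separately and was read with another version of the Feature Extraction protocol, per the file headers. Its median intensity was 62.4 in Cy3 and 78.1 in Cy5, against 106.1 to 154.1 and 112.5 to 152.5 on the other 11 arrays. Results that rest on it are given with and without the ZT16 pair. The albumin gene and the other hepatocyte-secreted genes of the marker list were among the brightest on all arrays: 10 of 11 were tested, and 9 of these were saturated on at least 6 of 12 arrays. Saturated probes cannot show their full difference, which touches 293 of the genes tested.

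The targeted gene itself comes first, as a check of the labels. In floxed livers the log2 ratio of Arntl was 1.10 at ZT0, 0.49 at ZT4, -2.18 at ZT8, -1.51 at ZT12, 0.24 at ZT16 and 1.13 at ZT20. In Cre livers it was -0.49, -0.24, -0.42, -0.43, -0.52 and -0.28 at the same times. These signs oppose the labels, which give Cy3 to the sample and Cy5 to the reference. On the slides of this age 84.6, 85.1 and 86.7% of probes varied more between arrays in Cy5 than in Cy3, so the ratio was taken as Cy5 over Cy3. With the dyes as labelled, every sign here turns and every peak moves by 12 h, while the sizes stay. The filter on dim probes would then read the other channel, which left 18135 genes and 1760 calls. The floxed values spanned 3.30 log2 units over the day and the Cre values 0.27. The Cre values lay inside the floxed range, and the mean difference was -0.28 ± 0.44 (limma adjusted p = 0.75), negative in 4 pairs and positive at ZT8 and ZT12. Whether the probe lies in the deleted part of the gene is not given in the sources used here, so its level checks the labels only through the lost swing over the day.

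**Figure D1:**
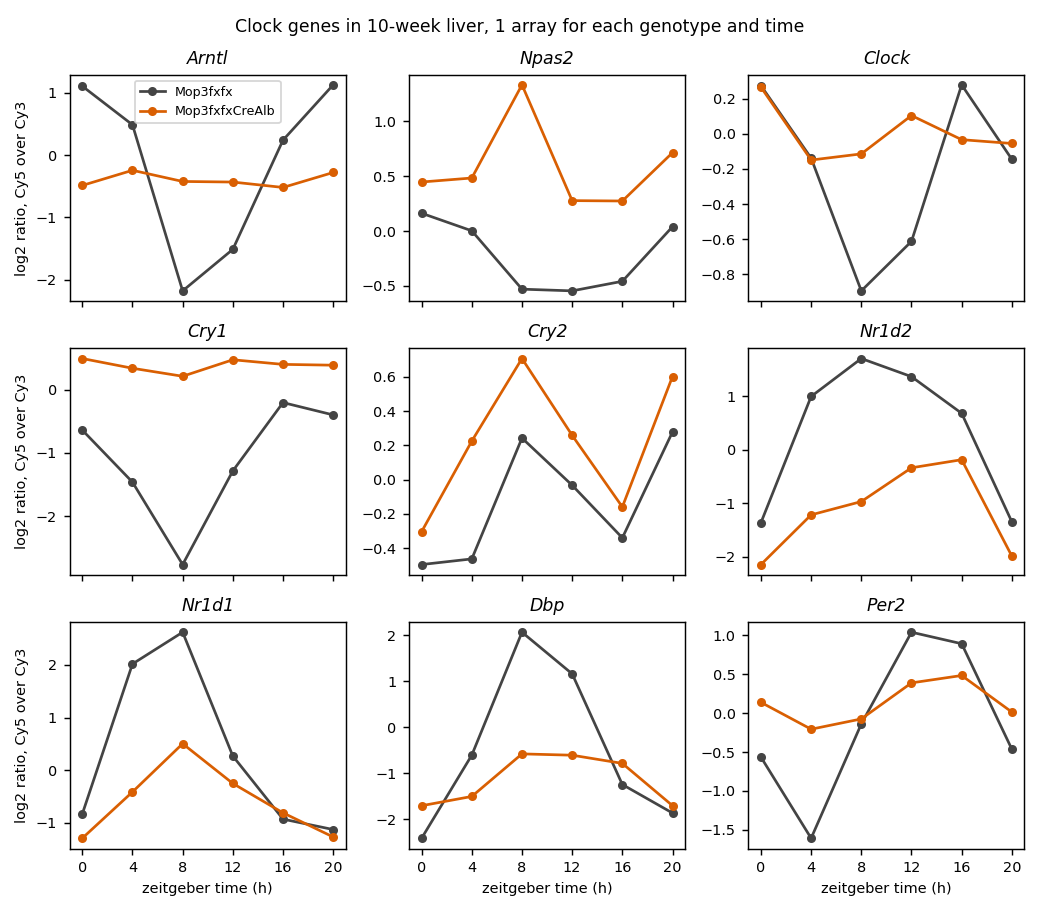
Log2 ratio of sample over reference (vertical axes) by zeitgeber time in hours (horizontal axes) for 9 clock genes, with 1 array for each point; dark points are floxed livers and orange points Cre livers. Arntl spans 3.30 in floxed and 0.27 in Cre livers, Cry1, Cry2 and Npas2 lie higher in Cre livers at every time, and Nr1d2 lies lower at every time.

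Among the clock genes, 1 of the 4 activators tested rose in Cre livers, and of 12 repressors and modifiers tested 2 rose and 1 fell, against 9.61% of all genes that passed in either direction. Cry1, a cryptochrome that represses CLOCK and ARNTL, read -0.64, -1.46, -2.77, -1.29, -0.21 and -0.40 from ZT0 to ZT20 in floxed livers. In Cre livers it read 0.49, 0.34, 0.21, 0.47, 0.40 and 0.38, above every floxed array. Its difference was 1.51 ± 0.28 (adjusted p = 0.014), widest at ZT8 (2.98) and narrowest at ZT16 (0.60), and its other probe read 1.09. Npas2, the partner of ARNTL that can replace CLOCK, differed by 0.81 ± 0.18 (adjusted p = 0.028). Npas2 and Cry1 are also the 2 of 8 ROR element targets that passed, and the median of that list was 0.51. Cry2 was higher by 0.36 ± 0.07 (adjusted p = 0.021) at its brightest probe and read 0.09 at its other one. Nr1d2, a REV-ERB repressor, read -1.36, 1.0, 1.70, 1.37, 0.68 and -1.35 in floxed livers and -2.14, -1.22, -0.97, -0.34, -0.19 and -1.99 in Cre livers. It was lower in all 6 pairs, most at ZT8 (-2.67), and its difference was -1.48 ± 0.27 (adjusted p = 0.014). Its relative Nr1d1 read -0.93 ± 0.34 (adjusted p = 0.13), with its gap at ZT4 and ZT8 (-2.43 and -2.12) and 0.12 at ZT16. Of the 3 Nr1d1 probes the highest read -0.09. Per1, Per2 and Per3 read 0.10 ± 0.16, 0.26 ± 0.24 and -0.15 ± 0.13, and none of these passed. The other Per2 probe read -0.23. Of 12 E-box targets only Nr1d2 passed, and of the PAR bZIP targets 4 of 8 fell and none rose: Por, Nr1i3, Cyp2a5 and the carboxylesterase Ces1g (-0.65). Npas2, Cry1 and Cry2 were higher in all 6 pairs, but their calls lay near the threshold. All 3 missed it without ZT12, Npas2 also without ZT20 and Cry2 without ZT8 or ZT20. Over all genes, 1757 calls became 839 without ZT12 and 887 without ZT20. When each array was only centred on its median, no activator, E-box target or PAR bZIP target passed, and of the repressors only Cry1 did. Relative to all genes, the median was then -0.26 for PAR bZIP targets and 0.48 for ROR element targets. Nr1d2 also missed the threshold with ZT not fitted and with slide in place of ZT.

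The rhythm itself was measured with a 24-h cosine in each genotype. In floxed livers 8 genes passed the test (0.0438% of the genes tested): Dbp, Tef, Rgs16, Elovl3, Nampt, Dnmt3b, Tmem218 and A630005I04Rik, named after their values were seen. Rgs16, a regulator of G protein signalling, had a fitted amplitude of 2.68 in floxed and 0.53 in Cre livers. It read -2.51, 0.53, 2.82, 1.22, -0.97 and -2.38 in floxed livers, and between -2.94 and -1.24 in Cre livers. Dbp, a PAR bZIP factor driven through E-boxes, had amplitudes of 2.19 and 0.68, and Elovl3, a fatty acid elongase, of 1.64 and 0.12. Elovl3 had no value on the Cre ZT12 array and was saturated on 5 Cre arrays, so its swing in Cre livers could not be measured fully. Nampt, the enzyme that salvages NAD, kept more of its swing, with 0.80 and 0.49. In Cre livers no gene passed by limma (476, or 2.6%, had an unadjusted p under 0.05, against 1259, or 6.89%, in floxed livers), and for the difference in rhythm none passed either (318 unadjusted, 1.74%). With 6 times and 1 array each, the Cre and floxed amplitudes given here are therefore descriptions, without a called difference. With any 1 pair left out, between 0 and 2 genes passed in floxed livers.

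Averaged over the day, 1757 genes (9.61%) differed between the genotypes, 885 higher (4.84%) and 872 lower (4.77%) in Cre livers. The differences were mostly small: the median size was 0.35 among the higher and -0.42 among the lower genes, and 119 exceeded 1 on the log2 scale, 64 higher and 55 lower. All 6 pairs had 1 sign for 819 of the higher and 800 of the lower genes; over all genes tested 8.94% were higher and 8.66% lower in every pair. In 560 of all genes (3.06%) the 6 Cre arrays did not overlap the 6 floxed arrays, and 491 of these were called. Of the genes called, 25 had a saturated sample spot on at least 1 array and 1 on at least 6. Another 4 higher genes were not well above background on any floxed array and 2 lower genes on no Cre array, so their sizes are bounds and they are not named. The split changed with the normalisation. When each array was only centred on its median, with no loess curve, 132 genes passed, of which 75.8% were higher (100 higher, 32 lower) in place of 50.4%. The median of all genes then moved from 0.01 to 0.14, through the ZT12 and ZT20 pairs, whose medians were 0.47 and 0.51. Leaving out ZT12 or ZT20 left 839 and 887 calls, and leaving out ZT16 left 1645 (764 higher, 4.18% of the genes tested, and 881 lower, 4.82%).

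Among genes with a known symbol, those with the widest rise came from several families. Ntrk2, the receptor of brain-derived neurotrophic factor, ran from -4.43 to -3.09 in floxed livers (median -3.82) and from 0.13 to 1.33 in Cre livers (median 0.75). The groups were more than 3 log2 units apart at every time, and the difference was 4.47 ± 0.23 (adjusted p = 0.00012), a 22.1-fold rise. It is that of the brightest of 3 Ntrk2 probes, of which the lowest read 0.02. Lpl, the lipase that releases fatty acids from circulating lipoproteins, ran from -2.92 to -1.55 (median -2.63) in floxed and from 0.40 to 1.33 (median 0.71) in Cre livers. It rose by 3.29 ± 0.23 (adjusted p = 0.00034), with 2.53 at its other probe. Cyp2c55, a cytochrome P450 of the 2C family, rose by 3.09 ± 0.27. Its Cre values were more uneven, from -0.66 at ZT0 to 1.53 at ZT8, yet all lay above the floxed maximum of -2.25. Grk5, a kinase that desensitises G protein-coupled receptors, rose by 2.65 ± 0.18. The glutathione transferase Gstm2 had the steadiest rise of the first 5, between 2.14 and 2.80 in every pair (2.59 ± 0.09, adjusted p = 1.3e-05).

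The next 5 were Hebp2 (2.48 ± 0.13), a haem-binding protein, and Ndrg1 (2.29 ± 0.19), a gene induced by hypoxia and cell stress. Srgap3, a GTPase-activating protein for RAC1, rose by 2.27 ± 0.08 at its brightest probe and read 0.03 at a second one. Defb1, an epithelial antimicrobial peptide, rose by 2.11 ± 0.17 but was well above background on only 3 of 6 floxed arrays. Ccn4, a secreted protein of the extracellular matrix, rose by 1.92 ± 0.09. For all 10 genes the Cre and floxed arrays did not overlap, a property that the choice of the largest differences with 1 sign in every pair favours.

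**Figure D2:**
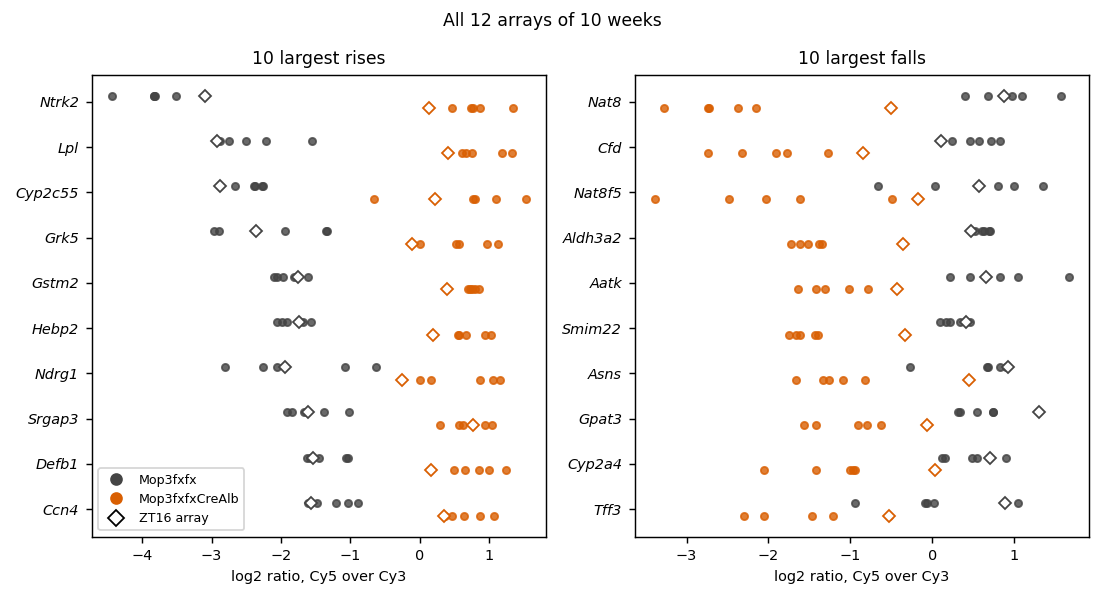
Log2 ratio of sample over reference (horizontal axes) on all 12 arrays for the 10 genes with the largest rise (left) and the 10 with the largest fall (right). They were taken among called genes with a known symbol and 1 sign in every pair. Dark points are floxed livers, orange points Cre livers, and open diamonds the ZT16 arrays. Among the fallen genes the Cre ZT16 array is the nearest to the floxed group for 10 of 10, as for Nat8 at -0.50 against -3.28 to -2.16 on the other Cre arrays. Among the risen genes it is the nearest for 8 of 10.

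Both N-acetyltransferases named here and several genes of lipid metabolism stood among the 10 largest falls. Nat8, an N-acetyltransferase of the cysteine conjugates that end the mercapturic acid pathway, ran from 0.39 to 1.57 (median 0.92) in floxed livers and from -3.28 to -0.50 (median -2.55) in Cre livers. Its difference was -3.23 ± 0.30 (adjusted p = 0.0011), and -3.60 without the ZT16 pair. Its relative Nat8f5 fell by 2.21 ± 0.28 on the log2 scale, with groups that overlapped. Cfd, the complement protease adipsin, ran from 0.11 to 0.83 in floxed and from -2.74 to -0.85 in Cre livers (-2.30 ± 0.26, adjusted p = 0.0021). Aldh3a2, which oxidises long-chain fatty aldehydes, was even in floxed livers, from 0.47 to 0.70, and lay between -1.73 and -0.35 in Cre livers. It fell by 1.93 ± 0.18 (adjusted p = 0.0012). Gpat3, which starts glycerolipid synthesis, differed by -1.56 ± 0.13. Asns, the asparagine synthetase, differed by -1.58 ± 0.22, with overlapping groups. The others were Aatk, the apoptosis-associated tyrosine kinase (-1.91 ± 0.20), Smim22 (-1.64 ± 0.16), the steroid-metabolising Cyp2a4 (-1.54 ± 0.19, saturated on 2 floxed arrays) and the trefoil peptide Tff3 (-1.49 ± 0.20, with overlapping groups). Cyp2a4 is closely related to Cyp2a5, and how far their probes tell them apart is uncertain. The call of Cyp2a4 was lost under median centring.

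The ZT16 pair gave the smallest difference for 8 of the 10 lowest and for 4 of the 10 highest genes. To see how far this held beyond them, each pair was set against the genes called from the other 5. For the 1643 genes called without ZT16 and measured in it, 82.1% had the same sign at ZT16, and the median difference there was 64.1% of that in the other pairs, 74.7% for higher and 55.8% for lower genes. For the other pairs the share with the same sign lay between 86.2 and 97.3% and the median between 73.1 and 101.6%. For higher genes alone, the median was smaller at ZT4 (54.3%) and ZT0 (65.7%) than at ZT16, and larger at ZT8, ZT12 and ZT20. Since the Cre ZT16 array alone has its own slide and scan, time of day, slide and that protocol version cannot be told apart there.

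**Figure D3:**
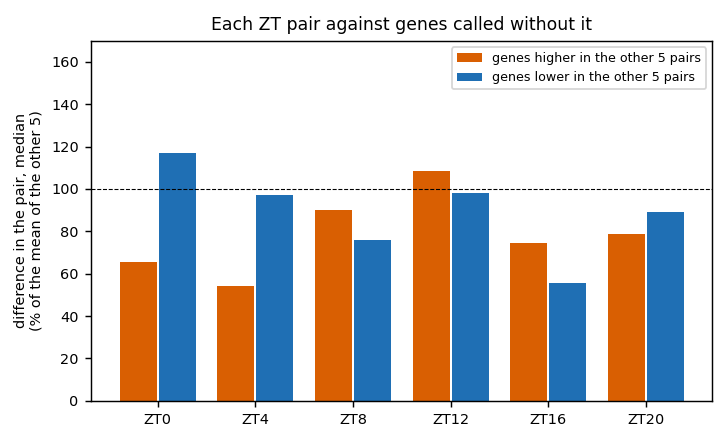
Median size of the genotype difference in each ZT pair, as a percentage of the mean difference in the other 5 pairs (vertical axis), over the genes called without that pair; orange bars are genes higher and blue bars genes lower in the other pairs, and the dashed line is 100%. The ZT16 pair has the lowest bar for lower genes (55.8%), and ZT4 the lowest for higher genes (54.3%).

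Several genes that moved carry an E-box upstream of their start, shown here because ARNTL binds this sequence. The 120 bases before the RefSeq start (GRCm38.p6, minus strand for all 3) of Cry1, which rose, and of Aldh3a2 and Aatk, which fell, are printed 5′ to 3′ with the E-box CACGTG in capitals.
Cry1, chr10:85185055-85185174: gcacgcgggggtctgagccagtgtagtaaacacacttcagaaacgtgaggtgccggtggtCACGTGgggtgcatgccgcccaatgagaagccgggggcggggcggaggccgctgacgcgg
Aldh3a2, chr11:61267187-61267306: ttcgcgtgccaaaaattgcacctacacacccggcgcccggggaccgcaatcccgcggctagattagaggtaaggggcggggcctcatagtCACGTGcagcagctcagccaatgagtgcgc
Aatk, chr11:120041782-120041901: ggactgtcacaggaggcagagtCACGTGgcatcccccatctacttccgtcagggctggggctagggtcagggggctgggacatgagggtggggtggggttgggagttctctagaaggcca
The E-box begins 60 bases before the start in Cry1, 30 in Aldh3a2 and 98 in 1 of 4 annotated windows of Aatk. Of the genes tested, 11907 had a RefSeq window from 250 bases before to 50 after the start. CACGTG, which reads alike on both strands, lay in 12.5% of the windows of 599 higher genes, 12.8% of 561 lower genes and 10.8% of all. The receptor motif AGGTCA, on either strand, lay in 15.4%, 20.5% and 16%. The D-box TTATGTAA lay in 0.835%, 1.78% and 0.857%. These shares describe letters in a short window and not binding.

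In sterol synthesis 9 of the 25 genes tested were higher, none was lower and 16 did not pass, against 4.84% and 4.77% of all genes, and the median of the list was 0.69 beside 0.01 for all genes. A further look at signs found 13 of 25 higher in all 6 pairs. Lss, the cyclase that forms lanosterol, ran from -1.74 to -0.56 in floxed and from -0.12 to 0.74 in Cre livers, and rose by 1.27 ± 0.21 (adjusted p = 0.0085). Pmvk of the mevalonate pathway rose by 0.92 ± 0.16, Cyp51, the lanosterol demethylase, by 0.85 ± 0.09 and Nsdhl by 0.69 ± 0.11. The size changed with the time: the list's median difference was 0.43 at ZT0, 0.85 at ZT4, 0.08 at ZT8, 0.31 at ZT12, 1.41 at ZT16 and 0.69 at ZT20. Without ZT16, where it was widest, 10 genes were called and the median was 0.50. Under median centring 3 remained called and the median, relative to all genes, was 0.82.

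In fatty acid oxidation 17 of 35 genes tested fell and 1 rose, against 4.77% and 4.84% of all genes, and the median was -0.34. Besides Aldh3a2, these were led by Decr2, a peroxisomal reductase for unsaturated fatty acids, which ran from 0.45 to 0.78 in floxed and from -0.24 to 0.31 in Cre livers (-0.56 ± 0.05, adjusted p = 0.0010). Slc25a20, the carnitine carrier of mitochondria, fell by 0.63 ± 0.07 and Cpt1a, which commits fatty acids to mitochondrial oxidation, by 0.45 ± 0.06. Ppara, the receptor that induces many of these genes, fell by 0.53 ± 0.05 in a range of -0.65 to -0.41 over the pairs. The exception was Pdk4 (1.33 ± 0.26, adjusted p = 0.017), a kinase that spares glucose, named after its value was seen. Of the oxidation genes, 6 were saturated on at least 6 arrays. The median difference was negative in each pair, from -0.56 at ZT4 to -0.16 at ZT12. Without ZT16 the count was 21 lower and 1 higher. Under median centring 1 gene was lower, and the list's median was -0.23 relative to all genes.

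In fatty acid synthesis 5 of 24 fell and 1 rose (median -0.18), against 4.77% and 4.84% of all genes; under median centring none was lower and 1 was higher, and the median relative to all genes was -0.15. Scd1, which makes monounsaturated fatty acids, fell by 0.88 ± 0.10, from 0.46 to 1.10 in floxed to between -0.43 and 0.06 in Cre livers. Its relative Scd2 rose by 0.99 ± 0.19, a call lost without ZT4 (adjusted p = 0.051). Me1, which supplies NADPH, and Mlxipl, the carbohydrate-response factor ChREBP, fell by 0.73 ± 0.14 and 0.52 ± 0.08; Me1 missed the threshold without ZT12 or ZT20. Of 19 lipid droplet and adipose-type genes 7 fell and none rose (median -0.24). They include Cfd, Fitm1 (-1.18 ± 0.09), which helps droplets form, Cidec (-1.42 ± 0.11), which fuses them, and Pparg (-0.55 ± 0.06), the factor that drives adipose genes. Under median centring 3 of the 19 were lower. Of 7 tested adipose markers, Cfd and Pparg fell, while Adipoq read -0.45 ± 0.12 (adjusted p = 0.057) and Fabp4 0.22 ± 0.07. The mean ratio of these 7 to the reference lay between 0.962 and 1.26 in floxed and 0.783 and 0.906 in Cre livers, Lep, Retn and Ucp1 did not pass the filter, and the part of adipose tissue in the result was not tested. In whole liver, fewer cells of a type and less RNA per cell cannot be told apart. Of 23 lipoprotein genes 4 rose, Lpl, Lipc (0.47 ± 0.09), Vldlr (0.40 ± 0.08) and Abcg1 (0.27 ± 0.05), and Apoa4 fell (-0.58 ± 0.09). Of these, Vldlr missed the threshold without ZT12 or ZT20 and Abcg1 without ZT12, and 7 of the 23, apolipoproteins, were saturated on at least 6 arrays.

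**Figure D4:**
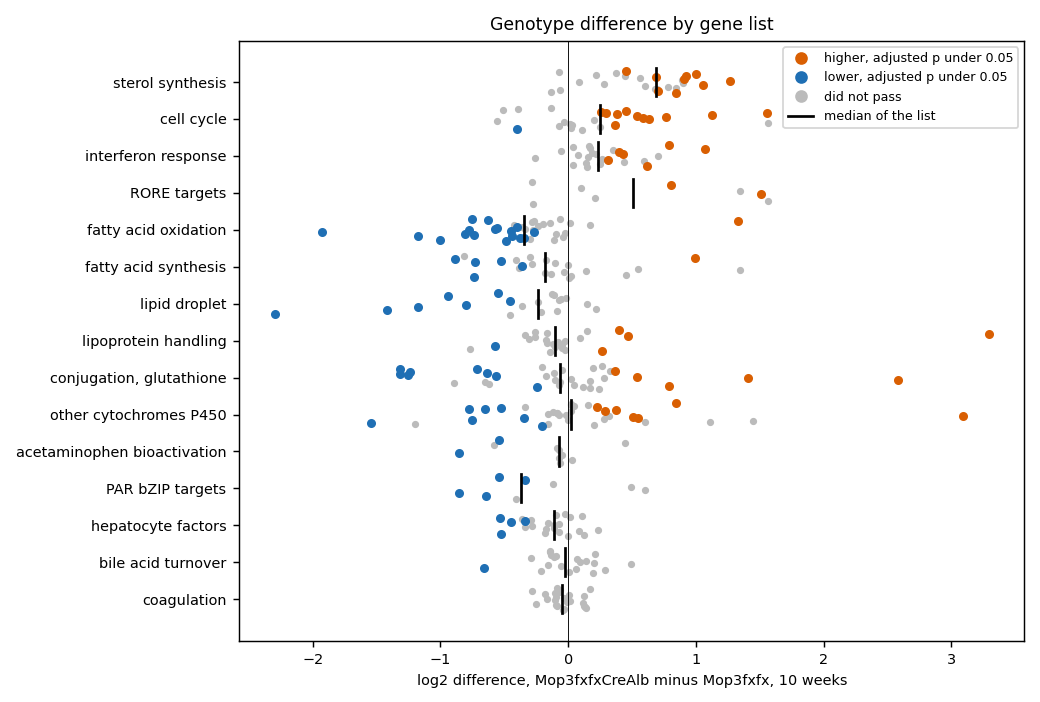
Genotype difference (log2, Cre minus floxed, horizontal axis) of each tested gene in 15 gene lists; orange and blue points passed at an adjusted p under 0.05, grey points did not, and the black line is the median of the list. Sterol synthesis (median 0.69) and ROR element targets (0.51) lie highest, and fatty acid oxidation (-0.34) and PAR bZIP targets (-0.37) lowest.

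Drug metabolism changed in both directions. Among conjugation and glutathione genes 5 of 33 rose and 8 fell (median -0.06), against 4.84% of all genes higher and 4.77% lower. Of the glutathione transferases called, Gstm2, Gstm6 (1.41 ± 0.15) and Gstm7 of the mu class rose, and Gstt2 (-1.26 ± 0.12), Gstt1 and Gstt3 of the theta class fell; Gstm7, Gstt1 and Gstt3 were picked out after their values were seen. Sult1a1, a phenol sulfotransferase, ran from -0.31 to 1.0 in floxed and from -1.70 to -0.54 in Cre livers and fell by 1.24 ± 0.12. Members of the mu family resemble each other, and 2 of them, Gstm1 and Gstm3, were saturated on all 12 arrays. Among other cytochromes P450 7 of 35 rose and 7 fell, led by Cyp2c55 and Cyp2a4; Cyp4a12a, a male-biased fatty acid hydroxylase, fell by 0.53 ± 0.06. Under median centring 2 of the conjugation genes and 2 of the other cytochromes P450 were higher, and none of either list was lower. Relative to all genes, the medians of these lists were then 0.08 and 0.14. Of 10 genes that activate acetaminophen or pass electrons to its oxidases, 2 fell. Por, the electron donor of all microsomal P450 enzymes, read -0.54 ± 0.12 (adjusted p = 0.028) and was saturated on 3 floxed arrays and in the reference on 5. Cyp2a5 read -0.86 ± 0.18 (adjusted p = 0.025) and was positive at ZT16 (0.09). It was saturated on 5 floxed arrays and in the reference on 6, and its second probe read -1.49, so its size is not exact. Both calls were lost without ZT4, ZT8, ZT12 or ZT20. Cyp2e1, Cyp3a11 and Cyb5a were saturated on 11 or more arrays, so a difference in them could not be measured. Of 23 liver transcription factors 4 fell and none rose, against 4.77% of all genes that were lower, and the list's median was -0.11 (-0.05 relative to all genes under median centring, with none called). Next to Ppara these were Nr1i3 (CAR, -0.33 ± 0.06), Cebpa (-0.53 ± 0.13) and Nr1i2 (PXR, -0.45 ± 0.12). Nr1i3 missed the threshold without ZT20, Cebpa without any of 4 pairs and Nr1i2 without any of 5.

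In the cell cycle list 11 of 25 genes rose and Ccnb1 alone fell (median 0.25), against 4.84% and 4.77% of all genes. The 6 MCM subunits in it, which form the helicase that opens DNA for replication, were all among the risers. Mcm6 rose by 1.13 ± 0.16, Mcm2 by 0.63 ± 0.10 and Mcm3 by 0.59 ± 0.10, with Mcm4 (0.77 ± 0.13), Mcm5 (0.54 ± 0.14) and Mcm7 (0.38 ± 0.09), named after their values were seen. Myc, a growth factor-induced transcription factor, ran from -2.0 to -0.16 in floxed and from -0.80 to 1.15 in Cre livers (1.56 ± 0.26, adjusted p = 0.0092). Ccnb1, a mitotic cyclin, read -0.40 ± 0.08, while Cdk1, Ccnb2 and Ccna2, which did not pass, read 0.01 ± 0.06, 0.02 ± 0.05 and 0.11 ± 0.07. Of 24 interferon-induced genes 6 rose and none fell (median 0.24), against 4.84% of all genes higher. Rsad2, an antiviral enzyme, rose by 1.07 ± 0.17, with 2.12 at ZT16 and 0.71 to 1.09 in the other pairs. Cxcl10, a chemokine, rose by 0.61 ± 0.10, Oasl2 by 0.40 ± 0.07 and Ifit2 by 0.31 ± 0.07, the last lost without ZT8, ZT12 or ZT20. Under median centring 6 cell cycle and 2 interferon genes were called higher. The list's median was 0.72 at ZT16 and 0.03 to 0.33 elsewhere, and without ZT16 5 genes were called and the median was 0.13.

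Sox9 and Spp1, genes of bile duct and progenitor cells, rose, while the other 7 duct markers tested did not pass; of all genes 4.84% were higher. Spp1 (osteopontin) ran from -1.52 to -0.49 in floxed and from -0.07 to 1.19 in Cre livers (1.66 ± 0.19, adjusted p = 0.0024). Sox9 read 1.0 ± 0.25 (adjusted p = 0.044), and its gap was 2.02 at ZT8 and 0.08 at ZT16; its call was lost without any of 4 pairs. Of the 9 duct markers tested, Krt19 read -0.0014 ± 0.16, Krt7 -0.07 ± 0.06 and Epcam 0.07 ± 0.08. The mean ratio of the 9 lay between 0.732 and 1.12 in floxed and 0.948 and 1.14 in Cre livers. Of 14 stellate cell and fibroblast markers 3 rose, Lrat, Pdgfrb and Lum, each by at most 0.54. Lrat was lost without any of the 6 pairs, and Pdgfrb and Lum without any of 5. Of 14 macrophage markers 1 rose (Mpeg1, 0.43 ± 0.10, lost without any of 4 pairs), a share near that of all genes. Endothelial (14 tested), lymphocyte (15) and neutrophil (5) markers gave no calls with all 6 pairs; without ZT16, 1 endothelial marker was higher and 1 lymphocyte marker lower. The mean ratio of the endothelial markers lay between 0.874 and 1.13 in floxed and 1.03 and 1.20 in Cre livers, and that of the macrophage markers between 0.791 and 1.18 and between 0.869 and 1.30. The part of other cell types in the results was not tested.

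The other lists are read against the 9.61% of all genes called, 4.84% higher and 4.77% lower. Of 15 female-biased genes 4 fell, Cyp2a4, Fmo1 (-0.68 ± 0.11), Acot3 (-0.74 ± 0.18) and Cyp17a1 (-0.21 ± 0.05), and Prlr, the prolactin receptor, rose (0.88 ± 0.22). Of 15 male-biased genes Cyp4a12a fell and Cyp2u1 rose (0.37 ± 0.07). Of 20 genes of the ATF4 amino acid response Asns fell and Mthfd2 (0.27 ± 0.05), Vldlr and Nupr1 (0.34 ± 0.07) rose, and of 15 genes of glucocorticoids and feeding Klf9 fell (-0.44 ± 0.08) while Tsc22d3 (0.53 ± 0.12) and Sgk1 (0.83 ± 0.21) rose. The calls of Acot3, Mthfd2, Nupr1 and Tsc22d3 were each lost without any of 3 pairs, and those of Cyp17a1 and Sgk1 without any of 4. No gene of the coagulation list (24 tested) or the haem synthesis list (7) passed. Alas2, a haem synthesis gene counted here among the 4 red cell markers tested, was lower (limma adjusted p = 0.0069). It read between -0.43 and -0.36 with any 1 pair left out. Under median centring its call was lost, as were all other calls of these lists except Asns and Hspb1. Of 27 glucose genes 2 rose, Gckr (0.62 ± 0.07, saturated on 4 Cre arrays) and Irs1 (0.65 ± 0.08), and 3 fell, Pcx (-0.36), the glucose transporter Slc2a2 (-0.86 ± 0.15) and the glycogen synthase Gys2 (-0.58 ± 0.09). Of 15 heat shock genes only Hspb1 passed (-1.43 ± 0.16), with overlapping groups. Of 20 bile acid genes only Akr1d1 fell (-0.66 ± 0.10), and of 29 urea cycle and amino acid genes Asl (-0.71 ± 0.11) and Gpt2 (-0.59 ± 0.10) fell while Amdhd1 (0.56 ± 0.10) rose. Among 30 acute phase genes C9 rose (0.63 ± 0.13) and Saa4 fell (-1.15 ± 0.28), the first lost without any of 4 pairs and the second without any of 5.

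The same contrast at 20 weeks, from 1 fit of all 24 arrays, shows which of these differences recurred in other pools. The ages share only the reference pool. At 20 weeks 7990 genes (43.7%) passed, 3576 higher (19.6%) and 4414 lower (24.1%). Of the 1757 genes called at 10 weeks, 83.8% had the same sign at 20 weeks, against 60.4% of all genes, and 1044 were also called in that direction, which is 59.4% of the 10-week and 13.1% of the 20-week calls. All 20 genes named above for the largest rise or fall at 10 weeks were among them. Ntrk2, for example, differed by 4.77 and Nat8 by -2.71 at 20 weeks. The difference between the ages passed for 3573 genes (19.5%), 490 of them among the 1757. At 20 weeks, however, no pair shares a slide, and with slide as a block 103 genes passed. Of the genes called both at 10 weeks and for the shift with age, the 4 highest and the 4 lowest shifts follow, with the adjusted p of the shift under the slide block. Tenm4 went from -0.39 to 1.21 (0.54), Slc49a4, whose 2 probes read -0.39 and 0.37 at 10 weeks, from -0.39 to 1.03 (0.064), Pdzd7 from -0.38 to 1.03 (0.77) and Scd1 from -0.88 to 0.18 (0.92). Cidec went from -1.42 to -3.09 (0.27), Nsdhl from 0.69 to -0.90 (0.34), Ly6a from 0.68 to -0.82 (0.67) and Myc from 1.56 to 0.07 (0.45). None passed under that block, and for these genes age and slide cannot be told apart. In the limma fit of all 24 arrays, 4 of the 10-week differences did not pass themselves. These were Tenm4 (adjusted p = 0.59), Slc49a4 (0.18), Pdzd7 (0.59) and Nsdhl (0.084), while those of Scd1, Cidec, Ly6a and Myc passed.

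**Figure D5:**
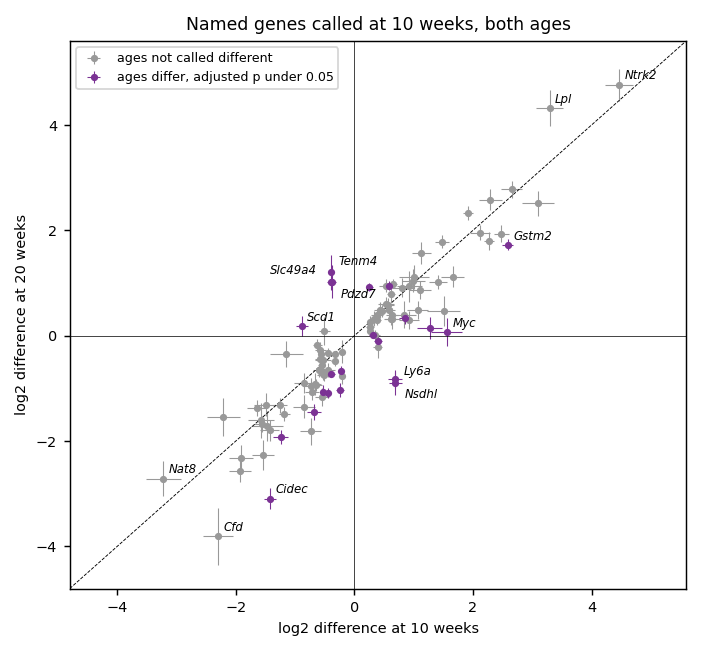
Log2 genotype difference (Cre minus floxed) at 20 weeks (vertical axis) against 10 weeks (horizontal axis) for the named genes called at 10 weeks, with standard errors; purple points differ between the ages in the fit without a slide block, and the dashed line marks equal differences. Ntrk2 (4.47 and 4.77) and Nat8 (-3.23 and -2.71) lie near the line, and Nsdhl and Ly6a lie on opposite sides of 0 at the 2 ages.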

How the data were processed

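Liver RNA was measured on 24 Agilent arrays with 2 colours, and the 12 arrays of 10-week mice were used here, with the other 12 only for the comparison of ages. The deposited scanner files give spot intensity in Cy3 and Cy5, extracted by the authors with Agilent Feature Extraction 9.1.3.1 per the file headers. They also give the deposited log10 ratio of Cy5 over Cy3, which the value table of the series repeats. Mean and background intensities were corrected by normexp (offset 50) and normalised by loess within each array with limma 3.58.1 in R 4.3.3; spots marked as outliers were left out, saturated spots were kept. The direction of the ratio is not settled by the labels, as the text says.

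A probe was kept when well above background in Cy5 on at least 4 of 12 arrays, which left 26759 probes, and the brightest stood for its gene. Of the 41174 probes, 24375 were named by accession, 6301 by symbol, 2426 by an older symbol, and 8072 kept the name in the file. Genotype was fitted with ZT as a block by lmFit and eBayes, with Benjamini-Hochberg adjusted p under 0.05 as the threshold; rhythm used a 24-h cosine. Genes with a missing array (135) were fitted on the other pairs.

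Named genes were Arntl, the 10 highest and 10 lowest differences with 1 sign in all 6 pairs and at most 2 saturated arrays, the 4 highest and 4 lowest shifts with age, the clock genes, and up to 4 called genes with the smallest p of each list. The highest and lowest differences and shifts were taken among genes with a known symbol, 15026 of the 18281 tested. Entries that kept the name in the file were left out there, whatever their difference. The genes and the 42 lists were chosen with earlier results of these data known, and some clock genes are not reported here. The fit was tested on simulated data. Alternatives covered normalisation, filters, probes, slide, array weights and each pair left out. Promoter sequences are from RefSeq. No array depth exists; the number of arrays limits the precision.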

Additional observations from a re-analysis of the deposited data

Results flagged for a closer look

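In 7 of 120 named genes with 6 pairs, 1 pair difference stood far from the other 5, and 5 of the 7 were at ZT16; chance flags about 1 in 20. Nat8 differed by -1.38 at ZT16 against -3.83 to -3.35 in the other pairs, Aldh3a2 by -0.82 against -2.36 to -2.05, and Slc49a4 by -0.12 against -0.51 to -0.39. At the same time Rsad2 differed by 2.12 against 0.71 to 1.09 and Oasl2 by 0.76 against 0.20 to 0.40. Away from ZT16, Npas2 differed by 1.86 at ZT8 against 0.28 to 0.82, and Pdgfrb by -0.03 at ZT20 against 0.27 to 0.37. Of 14 array measures, 1 stood apart: the Cre ZT16 array had 165 saturated Cy5 spots, against 390 to 510 on the other Cre arrays.

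The genotype difference changed between the ages for 22 named genes, by the age by genotype term of the limma fit. It was higher at 20 weeks, given as 20 minus 10 weeks, for Tenm4 (1.60), Slc49a4 (1.42), Pdzd7 (1.41), Scd1 (1.07), Lum (0.67) and Kynu (0.37). It was lower for Cidec (-1.67), Nsdhl (-1.60), Ly6a (-1.51), Myc (-1.49), Lss (-1.12), Gstm2 (-0.86), Gclm (-0.79), Fmo1 (-0.77), Sult1a1 (-0.69) and Cpt1a (-0.64). Smaller shifts were those of Ppara (-0.53), Cyp51 (-0.51), Oasl2 (-0.50), Nadk (-0.45), Alas2 (-0.33) and Ifit2 (-0.29). With slide as a block none of the 22 passed; their adjusted p lay between 0.064 (Slc49a4) and 0.92 (Scd1).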

How the results depend on the processing

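The count of 1757 genes stayed within 1.5 times under the deposited log ratio (1694), no background correction (2054), other filters (1600 to 1760), mean probes (1781), saturated probes left out (1777), slide without ZT (1521), array weights (2377), the fit of 24 arrays (1315) and the sample channel alone (2054). It was 132 under median centring (100 higher, 32 lower), 757 without the replicate block on ZT (398 and 359) and 644 with a cosine in its place (350 and 294). Median centring without ZT16, chosen after seeing the data, gave 49 (34 and 15). Leaving out 1 pair gave 839 to 1645 genes, 362 to 764 higher and 477 to 881 lower; ZT12 (839), ZT20 (887) and ZT8 (1124) moved it by over 1.5 times. The 8 rhythmic genes of floxed livers became 0 under median centring, 16 with the deposited ratio, 0 with no filter, 12 with slide as a block, and 0 to 2 without a pair; calls in Cre livers and for the difference in rhythm were 0 under every alternative run. The age difference gave 2322 genes without the replicate block, 2421 with the deposited ratio, 7423 with array weights and 103 with slide as a block. Of the 103 named genes called, 24 kept the call under every alternative run for them, and 4 turned sign under some: Gclm (sample channel alone 0.0606; median centring without ZT16 0.0217), Calr (median centring 0.0611; without ZT16 as well 0.0317), Nadk (0.0373 and 0.0460 likewise) and Cyp17a1 (median centring without ZT16 0.0183). Median centring moves the median of all genes to 0.14 (0.15 without ZT16), and relative to it the values under that centring stay below 0. Slide beside ZT removes the ZT16 pair by construction and gave the same count, 1645. The cause of these changes was not tested. Scan date divides the 10-week arrays as slide does and was not run separately. The replicate numbers used here follow the ZT and were not read from the titles, and the block is the ZT.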
